A study of Solanum lycopersicum with 6 samples.

Results

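The 10 rows described here are the mature tomato miRNAs numbered miR7981, miR5302, miR5303 and miR5304, out of 137 mature miRNAs in the deposited count table. They were taken by the number in the name, whatever their level. The families themselves were chosen with earlier results of these data known. The miR7981 rows are miR7981a, miR7981b, miR7981c, miR7981e and miR7981f, and the other 5 rows are miR5302a, both arms of miR5302b, miR5303 and miR5304. The libraries are small RNA of green tomato fruit (Solanum lycopersicum), made to compare drought-stressed with normally watered plants. In the drought group, pots received liquid fertilizer diluted 500-fold only once a week after flowering. In the control group, pots received the same fertilizer on alternate days, with plain water on the days between, so drought plants got less fertilizer as well as less water. Each group had 3 libraries. The labels give both groups 12 h of light, with 25 °C by day and 20 °C by night. The labels name no cultivar and do not state if libraries stand for separate plants or pooled fruit; p-values therefore reflect the spread between these libraries, and that spread may be technical.

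A plant miRNA is cut from a folded precursor transcript by a Dicer-like enzyme, and usually 1 strand of the excised duplex, named by its arm as 5p or 3p, is kept in an Argonaute protein and guides the silencing of matching mRNAs. Conserved families such as miR156 or miR159 regulate the same transcription factors in most land plants, whereas the families described here are known from tomato and related Solanaceae. Lineage-restricted plant miRNAs are often weakly expressed and often have no well-established target. No target is named here for any of the 10, and the deposited table does not hold their sequences.

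Of the 10 members, 9 have a precursor in the RefSeq gene table of the tomato assembly SLM_r2.1, the exception being miR5302a. That table also lists the precursor MIR7981d, which was not analysed here. Next to here means the nearest gene of the gene table on a side, at any distance. The precursor MIR7981e lies next to LAX4, of the LIKE-AUX1 auxin influx carriers, and MIR7981f next to IAA29, of the Aux/IAA repressors of auxin response. Their neighbours on the other side, and those of MIR7981a and MIR7981c on both sides, have only LOC names. MIR5304 lies within the span of Aucsia-2, a gene of a family linked to auxin and fruit set in tomato, MIR5303 within PTC52, and MIR7981b within LOC101253411. MIR5302b is next to MIR169c. Exons, introns and strands were not used here, so neither a shared transcript nor a shared promoter was examined. Whether genes linked to auxin are more frequent beside these precursors than beside others was not tested.

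The drought libraries held 430732 to 468711 miRNA counts and the control libraries 644434 to 749332. Levels are given as CPM, counts per 1e+06 counts of library sizes scaled by TMM (trimmed mean of M-values), whose factor was 1.35 in drought library 2 and 0.848 to 1.003 in the other 5 libraries. Of the 99 miRNAs with enough counts to test, 20 (20.2%) passed a Benjamini-Hochberg adjusted p of 0.05 in edgeR's quasi-likelihood test, with rises in 9.09% and falls in 11.1%, and 8 of the 10 members were among the 99. None of the 8 passed (0 of 8). At an unadjusted p under 0.05 there were 2 of the 8 (miR7981e and miR5302b-5p), against 34.3% of all tested miRNAs. DESeq2 called 1 of the 8 (miR5302b-5p), where it called 26.3% of all 99. The median log2 fold change, drought over control, was 0.89 over the 8 members and 0.16 over all 99. Of the 8 values 6 were positive, 5 of them from miR7981 rows, so the median rests largely on 1 family. Those of miR5304 and miR5303 were negative. The table of miRNAs holds no marker of fruit cell types, so the labelled tissue was not checked against markers, and a change in the number of cells of a type cannot be told apart from a change per cell.

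In green fruit the 10 members fell into an abundant pair, a middle pair and a scarce remainder. miR7981e was the 8th and miR7981f the 14th entry of the table by total counts, with 158894 and 88471 counts over all libraries. miR7981c had 2006 counts and miR7981a 1571. The other counted members were miR7981b with 324, miR5304 with 249, miR5303 with 235 and miR5302b-5p with 218 counts, and miR5302b-3p with 1. Because adapter ligation favours some small RNA ends over others, this order is that of the counts and need not be that of the molecules.

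**Figure D1:**
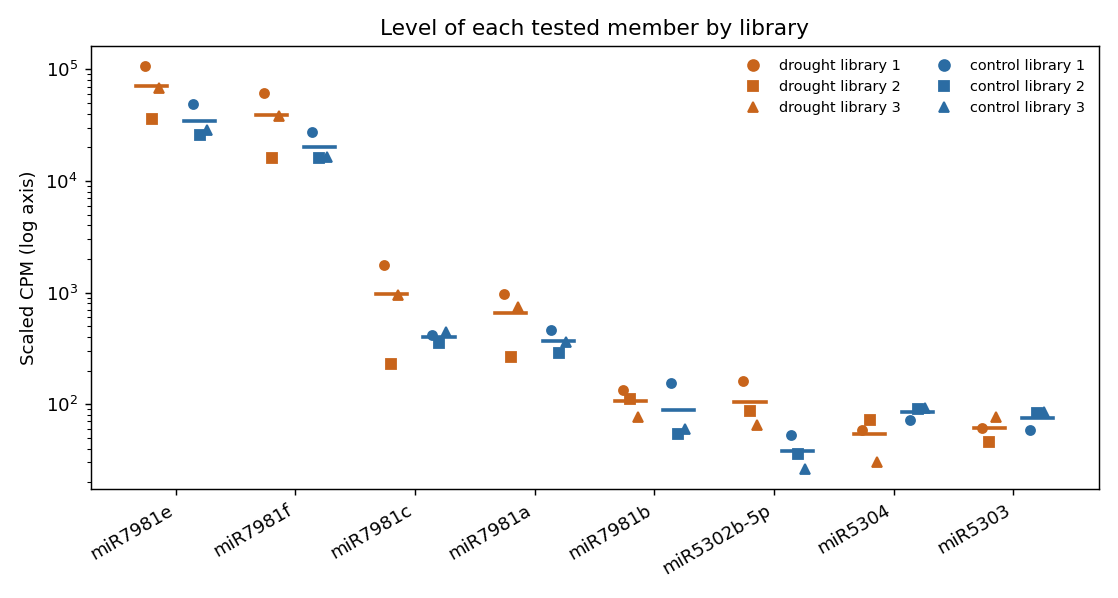
Scaled CPM (log axis) of the 8 tested members, with drought libraries on the left and control libraries on the right of each name; each symbol is 1 library and each bar the mean of 3. In miR7981e, miR7981f, miR7981c and miR7981a drought library 2 lies within or below the control range while drought libraries 1 and 3 lie above it, and for miR5302b-5p all drought libraries lie above all control libraries.

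miR7981e stood at 107027, 35674 and 68528 CPM in drought libraries 1, 2 and 3, against 48817, 25813 and 28763 CPM in control libraries 1, 2 and 3. Drought libraries 1 and 3 exceeded every control library, but drought library 2 lay below control library 1, so the groups overlapped. The mean was 70410 ± 35713 CPM in drought and 34464 ± 12517 CPM in control (SD, n = 3 each). This log2 fold change, 1.03 ± 0.45 (SE), did not pass (edgeR adjusted p = 0.132). It passed without drought replicate 2 (1.21, edgeR adjusted p = 0.00294) and with library totals alone in place of TMM scaling (1.08, edgeR adjusted p = 0.0463). Those fits called 41 of 101 and 27 of 99 tested miRNAs. Without drought replicate 1 the value was 0.65 (edgeR adjusted p = 0.348), more than 1.5 times smaller. In the authors' deposited table, whose header does not name the test, miR7981e has a log2 fold change of 1.08 with an FDR p of 0.0400, in a table where 24.8% of the 129 entries with a p lie under 0.05.

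miR7981f ran close to miR7981e at a lower level. Its CPM was 61620, 16165 and 38119 in drought libraries 1, 2 and 3, against 27379, 16161 and 16460 in control libraries 1, 2 and 3. Drought library 2 thus lay at the level of control libraries 2 and 3, while drought libraries 1 and 3 lay above all controls. On the log2 scale miR7981f stood at 0.95 ± 0.48 (edgeR adjusted p = 0.191), 1.18 without drought replicate 2 (edgeR adjusted p = 0.00378) and 0.49 without drought replicate 1 (edgeR adjusted p = 0.499). The authors' deposited table gives an FDR p of 0.0559 for miR7981f.

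The 2 middle members varied more between drought libraries than between control libraries. miR7981c stood at 1752, 227 and 954 CPM in drought, against 414, 350 and 445 CPM in control (libraries 1 to 3 in each), so drought library 2 was the lowest of all 6 libraries and drought library 1 the highest. Its highest CPM was 7.71 times its lowest, the widest range of the 8, where the median was 3.12 over the 96 tested miRNAs with a count in every library. On the log2 scale miR7981c stood at 1.28 ± 0.61 (edgeR adjusted p = 0.179), at 1.604 without drought replicate 2 (edgeR adjusted p = 0.00129) and at 0.58 without drought replicate 1 (edgeR adjusted p = 0.499).

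miR7981a stood at 977, 262 and 739 CPM in drought, against 461, 289 and 358 CPM in control. Here too drought library 2 was the lowest of the 6 and drought libraries 1 and 3 the highest. For miR7981a the fit gave 0.83 ± 0.49 on the log2 scale (edgeR adjusted p = 0.264), 1.07 without drought replicate 2 (edgeR adjusted p = 0.0260) and 0.48 without drought replicate 1 (edgeR adjusted p = 0.526).

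The scarce miR7981b did not share this order. It had 133, 111 and 77.2 CPM in drought, against 155, 54.1 and 59.6 CPM in control, so that control library 1 was the highest of all. The groups overlapped, and a log2 value of 0.26 ± 0.50 did not pass (edgeR adjusted p = 0.705) in any of 12 other settings. It ran from 0.09 without drought replicate 2 to 0.91 without control replicate 1 (edgeR adjusted p = 0.917 and 0.215), and was 0.15, 0.14 and 0.17 without drought replicate 1, control replicate 2 and control replicate 3 and 0.51 without drought replicate 3. Its 33 to 93 counts per library carry a wide counting error. The ratio of summed counts, drought over control, was 1.23 after division by the ratio of summed scaled library sizes. Its exact 95% Poisson interval was 0.979 to 1.53. PCR copies are not marked, so all such intervals cover counting error only.

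Summed, the 5 miR7981 rows took a larger share of the counts in every drought library than in any control library. The share was 14.5% (exact 95% Clopper-Pearson interval 14.4 to 14.6), 7.09% (7.01 to 7.16) and 10.8% (10.7 to 10.9) in drought libraries 1, 2 and 3, against 7.02% (6.96 to 7.08), 4.28% (4.23 to 4.33) and 4.44% (4.39 to 4.48) in control libraries 1, 2 and 3. The intervals of drought library 2 and control library 1 overlap, and the difference between these libraries was not tested. The mean share was 10.8% ± 3.73 in drought and 5.25% ± 1.54 in control (SD, n = 3 each), a difference of 5.55 percentage points (exact permutation test, two-sided, p = 0.1, which is the lowest p possible with 3 libraries a group). Without drought replicate 1 the difference was 3.68 points. With the 5 most abundant entries of the table left out of the totals it was 11.5 points. These are points of smaller totals, so their size cannot be set beside that of the other differences. Among single miRNAs, the unscaled shares did not overlap between groups for 41.4% of those tested, and were higher in drought for 25.3%.

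After scaling, the groups of the miR7981 sum overlapped. The sum stood at 158096, 50281 and 117765 CPM in drought, against 76296, 44103 and 46984 CPM in control, with drought library 2 below control library 1 because its family scaling factor was 1.41. Unlike in the unscaled shares, a control library thus exceeded a drought library. Tested among 52 families, of which 30.8% passed and 21.2% rose, the sum had a log2 fold change of 0.96 ± 0.38 and passed (edgeR adjusted p = 0.0408). That call was lost in a fit without robust estimation (0.0842), with DESeq2 (0.110), and with replicate number as a block (edgeR adjusted p = 0.135). It was also lost without drought replicate 1 (log2 fold change 0.58, edgeR adjusted p = 0.396), drought replicate 3 (0.0909), control replicate 2 (0.328) or control replicate 3 (0.198). Without drought replicate 2 the log2 fold change of the sum was 1.14 with an edgeR adjusted p of 0.000470.

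**Figure D2:**
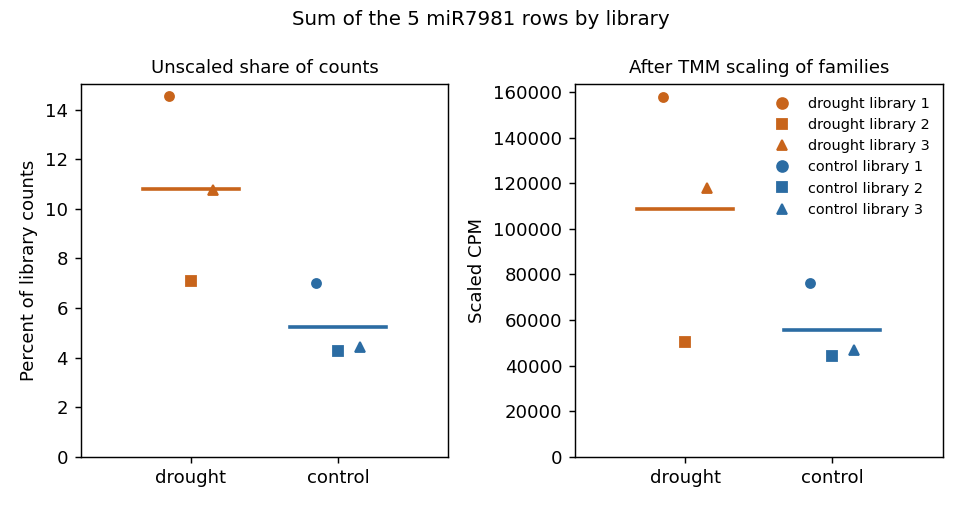
Sum of the 5 miR7981 rows in each library as a percent of the library's miRNA counts (left panel) and as CPM after TMM scaling of the family table (right panel), with drought left of control; symbols are libraries and bars the means of 3. The lowest drought library, library 2, is at 7.09% against 7.02% in the highest control library without scaling, and at 50281 against 76296 CPM after it.

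The shares of single rows within the miR7981 counts can be compared without scaling. Those of miR7981e and miR7981f varied least relative to their means. These rows hold nearly all the miR7981 counts, so their shares nearly mirror each other, and the scarcer rows carry more counting error. miR7981e made up 62.4%, 68.0% and 63.2% of the miR7981 counts in drought libraries 1, 2 and 3, against 63.2%, 60.5% and 62.4% in control libraries 1, 2 and 3. The groups overlapped, and their means of 64.5% ± 3.04 in drought and 62.0% ± 1.39 in control differed by 2.50 points (SD, n = 3 each; exact permutation p = 0.5, adjusted over the 5 rows 0.75). miR7981f made up 34.0% ± 2.75 in drought and 36.3% ± 1.33 in control (exact permutation p = 0.3, adjusted 0.75). Without drought replicate 2 the difference in share, drought minus control, was 0.763 points for miR7981e and -0.805 points for miR7981f.

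The count of miR7981e was 1.74, 2.21 and 1.80 times that of miR7981f in drought libraries 1, 2 and 3, and 1.78, 1.597 and 1.75 times in control. This ratio spanned 1.38-fold over the 6 libraries, while the scaled CPM of miR7981e spanned 4.15-fold. If the authors' counting split reads between similar members, the single rows can trade counts; the rule for assigning such reads was not found in the labels or header.

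The minor rows varied more against miR7981e, whose count ratio spanned 1.69-fold to miR7981a, 2.57-fold to miR7981c and 2.81-fold to miR7981b. miR7981c took 0.778% ± 0.307 of the miR7981 counts in drought and 0.774% ± 0.218 in control, miR7981a 0.584% ± 0.0916 and 0.683% ± 0.0898, and miR7981b 0.120% ± 0.0788 and 0.152% ± 0.0417 (SD, n = 3 each; exact permutation p = 1, 0.3 and 0.6). For miR7981b the 2 highest shares were 0.211% in drought library 2 and 0.200% in control library 1, against 0.0712% to 0.129% in the other 4 libraries. None of the 5 rows had shares that separated the groups. None of the 5 tests passed after adjustment (adjusted p from 0.75 to 1), but none could have passed. With 3 libraries a group the lowest possible exact permutation p is 0.1, which lies above the threshold even before adjustment. These tests therefore cannot decide if the shares within the miR7981 counts changed.

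**Figure D3:**
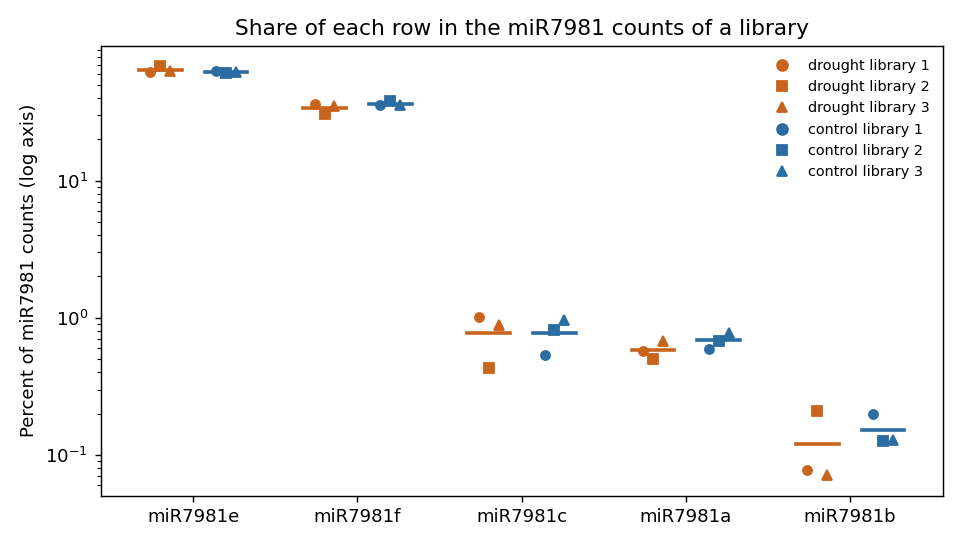
Percent of a library's miR7981 counts held by each of the 5 rows (log axis), with drought libraries on the left and control libraries on the right of each name and bars at the means of 3. miR7981e lies between 60.5% and 68.0% and miR7981f between 30.8% and 37.9% in all 6 libraries, and in all 5 rows the groups overlap.

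The tested miRNA outside these families whose level followed miR7981e most closely was miR10532. Likeness was measured as the root mean square difference of log2 CPM, centred on each miRNA's own mean over the 6 libraries, so that 0 means an identical pattern. It was 0.09 for miR10532, smaller than the 0.14 for miR7981f, and 0.24 for miR7981a, 0.31 for miR1919a and 0.34 for miR482e-5p, where the median of all 98 other tested miRNAs was 0.85. miR10532 stood at 183619, 65654 and 110484 CPM in drought, against 76073, 42381 and 44007 CPM in control, the same order of libraries as miR7981e. All these values come from the same 6 libraries and share their scaling.

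The scarcer miR5302b-5p was the member whose groups separated after scaling. It stood at 162, 86.8 and 65.5 CPM in drought libraries 1, 2 and 3, against 53.2, 35.6 and 26.3 CPM in control libraries 1, 2 and 3, from 61, 55 and 28 counts in drought and 32, 23 and 19 counts in control. Every drought library exceeded every control library, as was the case in that direction for 18.2% of all tested miRNAs. The mean was 105 ± 50.9 CPM in drought and 38.4 ± 13.7 CPM in control (SD, n = 3 each). At 1.44 ± 0.47 on the log2 scale it missed the threshold (edgeR adjusted p = 0.0539).

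That value lay close to the threshold, and 5 of 12 other settings carried miR5302b-5p past it. These were DESeq2 (adjusted p = 0.0264), library totals alone (edgeR adjusted p = 0.0317), upper-quartile scaling (0.0270), and leaving out drought replicate 2 (0.0120) or drought replicate 3 (0.0366). In the same order, these fits called 26, 27 and 26 of 99 tested miRNAs, 41 of 101 and 19 of 104. The main fit called 20 of 99. Over all 12 settings the adjusted p ran from 0.0120 to 0.224 and the log2 fold change from 1.06 to 1.75. The ratio of summed counts, divided by that of summed scaled library sizes, was 2.67, with an exact 95% Poisson interval of 2.001 to 3.58. In the authors' deposited table miR5302b-5p has a log2 fold change of 1.496 and an FDR p of 0.0202. Tested among the families, of which 30.8% passed and 21.2% rose, the miR5302 sum passed (log2 fold change 1.39 ± 0.51, edgeR adjusted p = 0.0282). The other miR5302 rows add only 1 count, so this sum holds almost the same counts as miR5302b-5p alone. The sum did not pass with replicate number as a block (edgeR adjusted p = 0.0993). Nor did it pass without drought replicate 1 (0.272), control replicate 2 (0.215) or control replicate 3 (0.185).

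Nearly all miR5302b counts came from the 5p arm. It held 218 of 219 counts, 99.5% (exact 95% Clopper-Pearson interval 97.5 to 99.99), and the single 3p count was in drought library 2. miR5302a had a count of 0 in each of the 6 libraries; over their 3397763 counts together, this allows a level of up to 0.883 CPM (3 counts). Neither miR5302a nor miR5302b-3p entered the test.

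miR5304 and miR5303 were the members with negative log2 fold changes, and neither passed. miR5304 stood at 58.6, 72.6 and 30.4 CPM in drought, against 71.5, 91.3 and 91.5 CPM in control, with only drought library 2 reaching the control range. The mean was 53.9 ± 21.5 CPM in drought and 84.8 ± 11.5 CPM in control (SD, n = 3 each), or -0.64 ± 0.42 on the log2 scale (edgeR adjusted p = 0.281). It ran from -1.08 without drought replicate 2 (edgeR adjusted p = 0.0953) to -0.30 without drought replicate 3 (0.662). In the family table, where the scaling differs slightly, its groups did not overlap, as in 36.5% of families, and it did not pass either (-0.70 ± 0.50, edgeR adjusted p = 0.327). For miR5304 the ratio of summed counts, divided by that of summed scaled library sizes, was 0.661. Its exact 95% Poisson interval was 0.501 to 0.866, which covers counting error only and not the spread between libraries.

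For miR5303 the CPM was 61.2, 45.8 and 77.2 in drought, against 58.2, 83.5 and 84.5 in control. The groups overlapped, with control library 1 below drought libraries 1 and 3. At -0.31 ± 0.39 on the log2 scale miR5303 did not pass (edgeR adjusted p = 0.566). The ratio of summed counts, divided by that of summed scaled library sizes, was 0.777 with an exact 95% Poisson interval of 0.588 to 1.02. Under upper-quartile scaling, which moved the median of all tested miRNAs to 0.40, miR5303 stood at -0.07 as a single row and at 0.21 in the family table. The miR5302 to miR5304 rows together took 0.0230% ± 0.00544 of the counts in drought and 0.0191% ± 0.00227 in control (SD, n = 3 each; exact permutation p = 0.3).

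**Figure D4:**
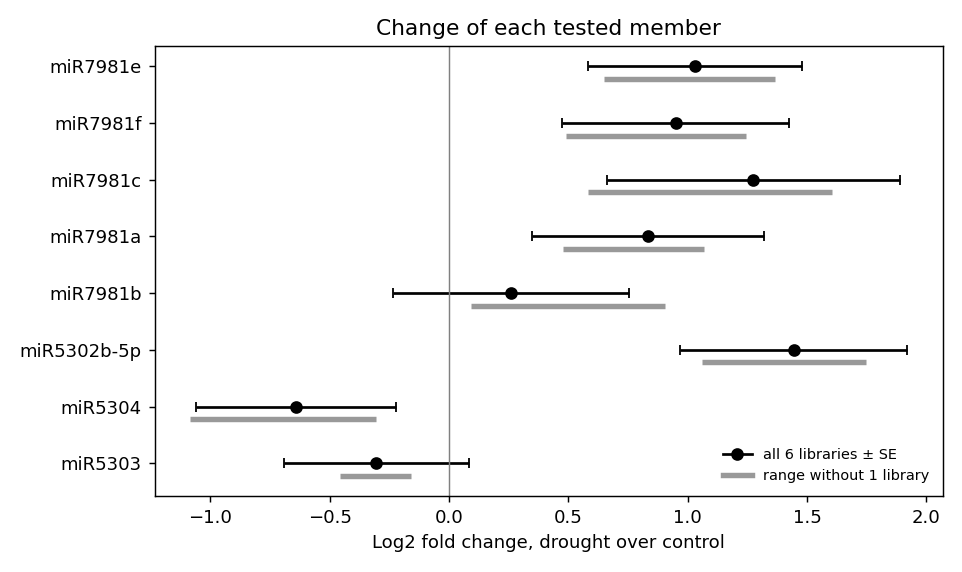
Log2 fold change, drought over control, of the 8 tested members (black points, with SE as error bars) and the range of the same value when 1 library is left out (grey bars). The 5 miR7981 rows and miR5302b-5p lie above 0 and miR5304 and miR5303 below it in each of the 6 fits with 1 library left out.

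The direction of each of the 8 single rows was the same in all 12 other settings, positive for 6 and negative for 2, and the number of calls was highest without drought library 2. Without drought replicate 2, 5 of the 8 members passed (miR7981e, miR7981f, miR7981c, miR7981a and miR5302b-5p), all of them rises, in a fit where 40.6% of all tested miRNAs passed and 19.8% rose. Without drought replicate 3, 1 of the 8 passed (miR5302b-5p), where 18.3% of all tested miRNAs did, and without any of the other 4 libraries none of the 8 passed (edgeR). As context, 25 tested rows of other families, listed by number, held 4 rises (both arms of miR9474, miR1918 and miR391) and 0 falls. Their median log2 fold change was 0.23. Over all 99 tested miRNAs, 9.09% rose and 11.1% fell. Whether each listed family is confined to Solanaceae was not checked.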

How the data were processed

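Small RNA libraries of green tomato fruit were made from 240 ng of total RNA by adapter ligation with an NEBNext small RNA kit, per the labels' protocols. The authors deposited 1 table of mature miRNAs with total counts, whole numbers that are not normalized, and a signal per library that the file headers call CPM, which equals the count divided by 1 constant per library other than its total. Their fold changes and p-values come from a test the header does not name. Neither labels nor header name the read trimmer, aligner, counting rule, miRNA release or build.

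The test on counts was that of edgeR 4.0.16 under R 4.3.3 (robust quasi-likelihood, TMM, two-sided, group as the only term) after filterByExpr (minimum count 10, minimum total 15), which kept 99 of 137 rows. Families were summed over rows with the same number and tested likewise; their median prior degrees of freedom were infinite, so most shared 1 estimate of the spread. The SE is the size of the log2 fold change divided by the square root of F. Shares were compared by exact permutation over 20 assignments with SciPy 1.17.1. Alternatives were DESeq2 1.42.0 (no independent filtering), other scalings, no filter, no robust estimation, a replicate block and leaving out each library. The fit was tested on simulated data. All 10 members were to be named; the 3 neighbours of miR7981e by pattern follow a rule. Members and lists were chosen with earlier results of these data known.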

Additional observations from a re-analysis of the deposited data

How the results depend on the processing

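The 8 single members kept their direction in all 96 recomputed values and their side of the threshold in 86; the other 10 newly passed. The number of tested miRNAs that passed, 20, ranged from 9 to 41 when 1 library was left out (9 without control replicate 2, 13 without control replicate 3 and 41 without drought replicate 2). The labels state no pairing of libraries by replicate number. The correlation of deviations between same-numbered libraries was 0.10, -0.24 and 0.01, and not every library correlated best with its own number. With 3 libraries a group these correlations cannot exclude a pairing. With the replicate block 12 miRNAs passed, 0 of the 8 members among them; the miR7981 sum stood at 0.86 (edgeR adjusted p = 0.135) and the miR5302 sum at 1.37 (0.0993), and neither passed. The miR7981 sum also did not pass without robust estimation (0.96) or with DESeq2 (0.88). With 1 library left out, it ranged from 0.58 to 1.26 and the miR5302 sum from 1.09 to 1.67. The miR5303 sum turned from -0.34 to 0.21 with upper-quartile scaling. The difference in the miR7981f share, -2.38 points, turned to 0.0858 points with miR7981e left out of the denominator. That of miR7981c, 0.0047 points, ranged from -0.12 to 0.18 points when 1 library was left out. The cause of these changes was not tested. Depth limits miR7981b, miR5302b-5p, miR5303 and miR5304, which had 13 to 93 counts per library.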
